A study of Mus musculus with 16 samples.

Results

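The genotype by adrenalectomy interaction asks, gene by gene, whether the stomach responded to adrenalectomy by the same amount in TTPΔARE mice as in wild-type (WT) mice. It is the difference TTP-A minus TTP-S less the difference WT-A minus WT-S, on the log2 scale, so a positive value means that a gene fell less or rose more in TTPΔARE than in WT mice. All 16 samples of the series and all genes that passed a filter on low counts entered it, which were 15385 of the 24964 gene symbols in the table. Each of the 4 groups held 4 samples of RNA from the gastric corpus of female C57BL/6 mice aged 8 weeks, taken from the lesser curvature as a 4 mm biopsy. WT-S and WT-A were from WT mice. TTP-S and TTP-A were from congenic mice with the TTPΔARE allele. The letter A stands for gastric inflammation after adrenalectomy, the surgical removal of the adrenal glands. The label of the S groups is SPEM, short for spasmolytic polypeptide-expressing metaplasia, in which mucous cells appear in injured glands, and does not say whether these mice were operated on, so S is used only as a group name. The labels do not say that the 4 samples of a group were 4 separate mice. The p-values therefore measure the spread between these samples, which may be technical.

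Tristetraprolin (TTP), encoded by Zfp36, is an RNA-binding protein that recognises AU-rich elements in the 3′ untranslated region (3′ UTR) of transcripts and recruits deadenylases that shorten the poly(A) tail, after which the transcript is degraded. Its own transcript carries such an element, and the TTPΔARE allele lacks it. The adrenal glands are the main source of glucocorticoids, steroid hormones that restrain inflammation. In the corpus, acid is made by parietal cells and digestive proenzymes by chief cells, which hold a large endoplasmic reticulum (ER). In injured glands chief cells can lose their secretory program, and SPEM cells appear.

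The 16 samples held between 17453930 and 25849472 counts, and between 17607 and 18377 genes were detected in a sample. A pair of WT-A samples stood apart. For WT-A 3 and WT-A 4, a gene's deviation from its median across samples rose with the GC content of its transcript, with a Spearman rho across 11493 genes of 0.72 and 0.74, and the largest absolute rho in the other 14 samples was 0.30 (genes are not independent replicates). Both belong to WT-A, so GC content and group cannot be told apart in them, and interaction values are given with all 16 samples and with the 14 samples that leave this pair out. In the 14 samples WT-A has 2 members, and 15597 genes passed the filter. In all 16, the median log2 interaction was 0.37 in the tenth of genes with the lowest GC content (median 39.8%) and -0.14 in the tenth with the highest (median 59.7%). In the 14 samples the same medians were 0.03 and -0.01. Corpus markers were abundant in every sample: 14 parietal cell genes summed to 22530 to 32770 CPM (counts scaled to a common library size) and 11 chief cell genes to 49660 to 154700 CPM. CPM here is a gene's count relative to the sample's total after TMM scaling between samples.

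**Figure D1:**
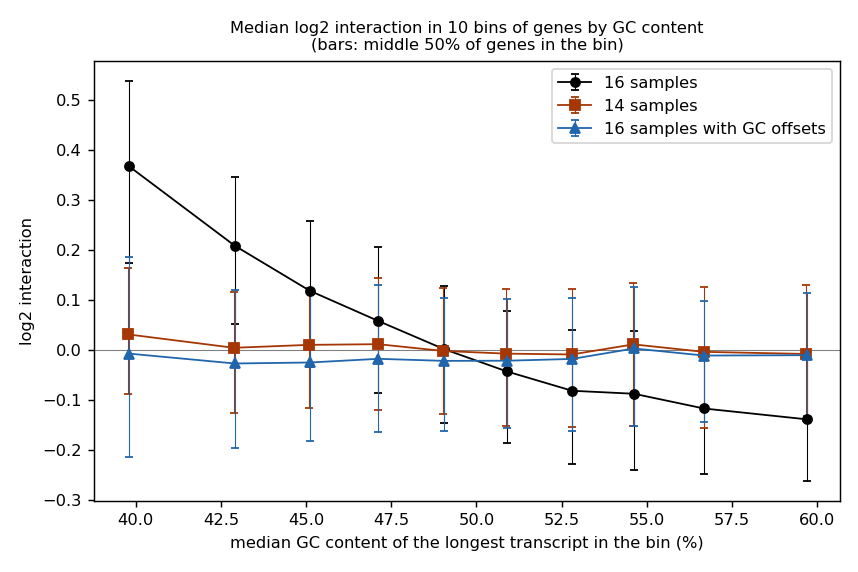
Median log2 interaction (vertical axis) in 10 equal bins of genes ordered by the GC content of the longest transcript (horizontal axis, %), with bars for the middle 50% of genes in a bin. The medians run from 0.37 to -0.14 in 16 samples and stay between 0.03 and -0.01 in 14 samples; the third line, with an offset for GC content fitted in each sample, also lies near 0.

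The gene targeted by the allele was read first. Zfp36 stood at 65.8, 55.1, 63.1 and 64.0 CPM in WT-S and at 63.2, 63.7, 72.5 and 88.6 CPM in WT-A. In TTP-S it stood at 114.8, 120.8, 129.5 and 123.5 CPM, and in TTP-A at 131.4, 129.1, 110.5 and 120.2 CPM. Every TTPΔARE sample lay above every WT sample, and within a genotype the conditions overlapped. The log2 interaction of Zfp36 was -0.21 (SE 0.14, edgeR adjusted p = 0.455) in 16 samples and -0.03 (SE 0.10, adjusted p = 0.952) in 14.

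In 16 samples the interaction was called for 9 genes, or 0.0585% of those tested. A call means an adjusted p under 0.05 in the quasi-likelihood test of edgeR, with the Benjamini-Hochberg adjustment made across every tested gene. Of the 9, 5 were higher (0.0325%) and 4 lower (0.0260%). In the 14 samples 46 genes were called (0.295%), 29 higher (0.186%) and 17 lower (0.109%), and all 9 were among them. An unadjusted p under 0.05 was reached by 2344 genes in 16 samples and 2065 in 14. The terms of the interaction had more calls: WT-A against WT-S had 2891 called genes in 16 samples (18.8%) and 1620 in 14 (10.4%), and TTP-A against TTP-S had 446 (2.90%) and 977 (6.26%). The interaction count rested on single samples. It was 211 without WT-A 1, 42 without WT-A 4, 26 without TTP-A 2, 25 without WT-S 1 and between 2 and 7 without any other sample. With 14 samples it ran from 5 without WT-A 2 to 117 without WT-S 1, and only Creg2, Adgrg6, Dmbt1 and Slc38a5 kept their call in each of the 14 fits without 1 sample. Without WT-A 1 or WT-A 2 these fits hold a single WT-A sample, which is assumed to vary like the other groups.

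The genes called with a positive interaction in 16 samples were Creg2, Ero1lb, Nucb2, Aldh1l2 and Erdr1. Creg2 encodes a secreted glycoprotein, Ero1lb an ER oxidase that helps form disulfide bonds in newly made proteins, and Nucb2 the calcium-binding precursor of the peptide nesfatin-1. Creg2, Ero1lb and Nucb2 were each lower in WT-A than in WT-S and not called in TTP-A against TTP-S. In bulk tissue, fewer cells of a type and less RNA per cell cannot be told apart.

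Creg2 (chr1:39618406-39651474, minus strand) stood at 16.6, 21.2, 22.4 and 19.8 CPM in WT-S and at 6.03, 5.76, 6.51 and 9.09 CPM in WT-A. It stood at 14.1, 16.2, 17.6 and 12.8 CPM in TTP-S and at 13.2, 17.4, 20.3 and 16.1 CPM in TTP-A. All WT-A samples were below all other samples, and the other 3 groups overlapped. The log2 difference in WT was -1.55 with an adjusted p of 0.00017, that in TTPΔARE mice was 0.14 with an adjusted p of 0.761, and the interaction was 1.69 (SE 0.22, adjusted p = 0.00795; 14 samples 1.91, SE 0.22, adjusted p = 0.00551). Ero1lb (chr13:12565874-12611396, plus strand) stood at 49.9, 57.3, 53.6 and 53.4 CPM in WT-S and at 32.2, 31.4, 28.2 and 31.2 CPM in WT-A. It stood at 54.0, 48.1, 48.6 and 46.4 CPM in TTP-S and at 48.5, 54.5, 60.9 and 48.2 CPM in TTP-A. Again WT-A lay below the 3 other groups without overlap. Its interaction was 0.91 (SE 0.11, adjusted p = 0.00634; 14 samples 0.86, SE 0.12, adjusted p = 0.00727). In the 16-sample fits Creg2 and Ero1lb kept their calls whichever 1 sample was omitted, with adjusted p-values up to 0.035 (without WT-S 3) and 0.0317 (without TTP-S 4). In 14 samples Ero1lb lost its call without WT-A 2 (adjusted p = 0.0652).

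For Nucb2 (chr7:116504369-116540584, plus strand) the WT-S samples were at 67.1, 74.3, 70.7 and 65.0 CPM and the WT-A samples at 38.1, 37.4, 28.3 and 35.3 CPM. The TTP-S samples were at 63.4, 65.0, 55.7 and 56.0 CPM and the TTP-A samples at 49.4, 66.0, 69.2 and 55.4 CPM. WT-A was again the group that stood alone at the low end. The interaction was 0.99 (SE 0.15, adjusted p = 0.0284; 14 samples 0.88, SE 0.15, adjusted p = 0.0198), and the call held in 10 of the 16 fits without 1 sample (adjusted p up to 0.124, reached without TTP-S 4). Among the 14-sample fits that kept WT-A 1 and WT-A 2, it was lost without WT-S 3, TTP-S 3 or TTP-S 4. The transcript of Nucb2 has a GC content of 41.8%. With GC offsets its interaction was 0.69 and the call was lost (adjusted p = 0.0955).

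Aldh1l2 (chr10:83487450-83534140, minus strand) encodes a mitochondrial enzyme of folate metabolism. It stood at 24.5, 36.9, 36.4 and 27.4 CPM in WT-S and at 15.1, 13.9, 16.1 and 20.7 CPM in WT-A. In TTP-S it was at 35.1, 29.9, 30.8 and 26.4 CPM, and in TTP-A at 36.1, 34.8, 44.7 and 34.9 CPM. All WT-A samples were the lowest, and TTP-A 3 was the highest of all. The interaction was 1.23 (SE 0.21, adjusted p = 0.0415; 14 samples 1.41, SE 0.21, adjusted p = 0.00988), while the log2 difference was -0.93 in WT, which was called, and 0.30 in TTPΔARE mice, which was not. The call held in 4 of the 16 fits without 1 sample (adjusted p up to 0.137, without TTP-S 4).

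Erdr1 had the largest interaction of the called genes in 16 samples. Erdr1 sequence is repeated in the mouse genome and reads may be shared between copies, so its counts are uncertain and no position is given. It stood at 8.12, 5.81, 10.5 and 9.98 CPM in WT-S and at 0.505, 0.207, 0.78 and 0.0869 CPM in WT-A, the last of which is 2 counts. It stood at 12.7, 8.52, 11.6 and 10.6 CPM in TTP-S and at 3.81, 4.20, 7.63 and 4.96 CPM in TTP-A. Condition A was below condition S in both genotypes with no overlap, and WT-A was far below TTP-A. The log2 difference in WT was -4.41, with an adjusted p of 2.79e-05. In TTPΔARE mice it was -1.07, with an adjusted p of 0.0547 in 16 samples and 0.0164 in 14. The interaction was 3.34 (SE 0.48, adjusted p = 0.0188; 14 samples 3.51, adjusted p = 0.00732), and it lost its call without WT-S 3, WT-S 4, TTP-S 3 or TTP-S 4 (adjusted p up to 0.0655, without TTP-S 4).

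The 4 genes with a negative interaction rose in WT-A and were not called in TTP-A against TTP-S. Dmbt1 encodes a secreted scavenger-receptor glycoprotein of mucosal defence, which was on the list of SPEM and mucous neck genes. Krt7 encodes a keratin of simple epithelia, Eln the elastic-fibre protein elastin, and Lbh a transcriptional cofactor of epithelial progenitors. For 3 of them, Dmbt1, Krt7 and Eln, the TTP-S samples lay above the WT-S samples without overlap. Both groups are terms of the interaction, so choosing genes by a negative value favours this order. Its share over all genes tested was not computed.

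Dmbt1 (chr7:131032053-131121630, plus strand) stood at 109.5, 116.2, 157.3 and 136.5 CPM in WT-S and at 454.9, 370.0, 306.3 and 233.8 CPM in WT-A. It stood at 240.8, 230.6, 206.5 and 306.5 CPM in TTP-S and at 156.7, 249.4, 118.9 and 122.2 CPM in TTP-A. WT-A lay above WT-S without overlap, while in TTPΔARE mice 3 of the 4 samples of condition A lay below all samples of condition S. The log2 difference in WT was 1.39, with an adjusted p of 0.00226. That in TTPΔARE mice was -0.61, with an adjusted p of 0.188. The interaction was -1.999 (SE 0.33, adjusted p = 0.035; 14 samples -2.27, SE 0.32, adjusted p = 0.00727). In 16 samples the call held in 4 of the 16 fits without 1 sample (adjusted p up to 0.124, without TTP-S 4), and in 14 samples it held in each of 14 such fits.

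Krt7 (chr15:101411043-101430313, plus strand) was at 11.9, 17.8, 19.7 and 18.1 CPM in WT-S and at 45.4, 61.2, 38.0 and 31.9 CPM in WT-A. It was at 23.9, 24.8, 23.9 and 32.7 CPM in TTP-S and at 16.99, 27.0, 14.6 and 21.1 CPM in TTP-A. WT-A was higher than WT-S and TTP-A in every sample. The interaction was -1.79 (SE 0.30, adjusted p = 0.0415; 14 samples -2.06, SE 0.29, adjusted p = 0.00727), and its call held in 4 of the 16 fits without 1 sample (adjusted p up to 0.137, without TTP-S 4). The 15 squamous forestomach genes that passed the filter also had negative interactions, none of them called. Their summed level was 64.3 to 355 CPM in WT-S, 154.5 to 1425 CPM in WT-A, 150.0 to 741 CPM in TTP-S and 81.9 to 424 CPM in TTP-A. Krt14 and Krt6a, which mark this epithelium, had 0 counts in WT-S 1 and TTP-A 3. Krt7 was highest in WT-A 2, the sample with the highest squamous sum, and the part of this epithelium in the result was not tested.

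Eln (chr5:134702593-134747323, minus strand) stood at 62.5, 75.8, 68.8 and 66.2 CPM in WT-S and at 113, 112, 140.0 and 175 CPM in WT-A. It stood at 123, 116, 112 and 132 CPM in TTP-S and at 105, 123, 78.6 and 97.9 CPM in TTP-A. WT-S alone lay below the 3 other groups. The interaction was -1.24 (SE 0.20, adjusted p = 0.035; 14 samples -0.98, SE 0.16, adjusted p = 0.0186), and WT-A 3 and WT-A 4 were the highest samples of all. The transcript has a GC content of 58.8%, and with GC offsets the call held, at -1.11 (adjusted p = 0.0133). With the replicate number as a block in 16 samples the call was lost (edgeR adjusted p = 0.0608). The call held in 6 of the 16 fits without 1 sample (adjusted p up to 0.124, without TTP-S 4). Among the 14-sample fits that kept WT-A 1 and WT-A 2, it was lost without WT-S 3 or TTP-S 4.

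Lbh (chr17:72918305-72941947, plus strand) stood at 168.7, 132.2, 165.7 and 160.8 CPM in WT-S and at 259.5, 234.4, 246.2 and 262.6 CPM in WT-A. It stood at 168.3, 161.5, 163.4 and 171.6 CPM in TTP-S and at 175.0, 148.8, 180.7 and 168.0 CPM in TTP-A. WT-A was above the 3 other groups, which overlapped each other. The interaction was -0.66 (SE 0.11, adjusted p = 0.035; 14 samples -0.64, SE 0.12, adjusted p = 0.0345). The call held in 7 of the 16 fits without 1 sample (adjusted p up to 0.124, without TTP-S 4). Among the 14-sample fits that kept WT-A 1 and WT-A 2, it was lost without WT-S 3, WT-S 4, TTP-A 4 or any single TTP-S sample.

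**Figure D2:**
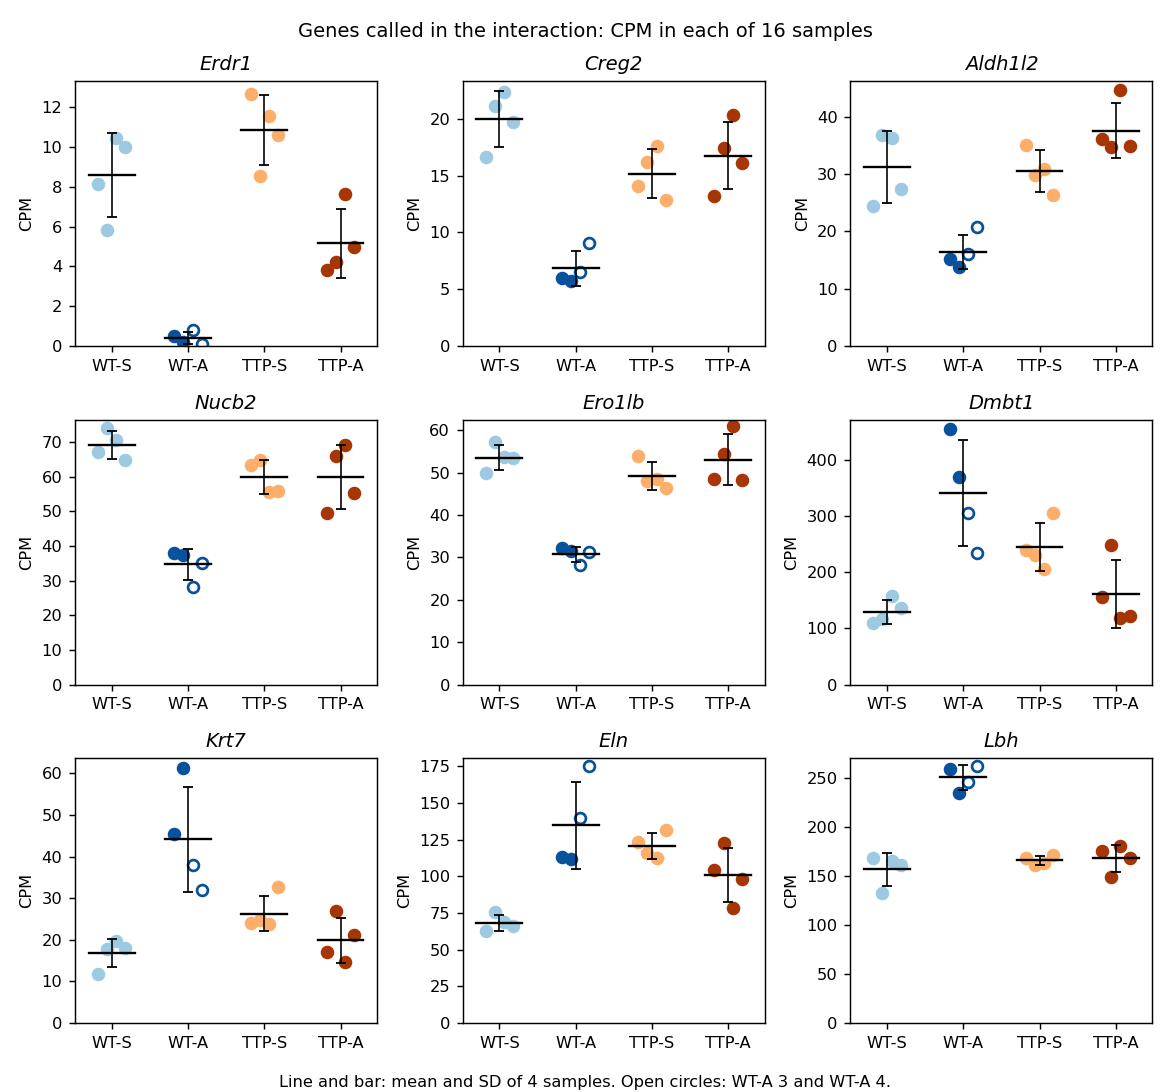
CPM (vertical axis) of the 9 genes called in 16 samples, in each sample of the 4 groups (horizontal axis); the line and bar give the mean and SD of 4 samples, and open circles mark WT-A 3 and WT-A 4. In 5 panels WT-A lies below WT-S and TTP-A, and in the panels of Krt7 and Lbh it lies above both.

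Sequences of 2 called higher genes and 1 called lower gene show where the AU-rich heptamer TATTTAT, a core motif bound by TTP, occurs in them. The 3′ UTR of the longest GENCODE transcript (build GRCm38) was searched on its own strand, and the capitals mark the match. Creg2 has matches at positions 1834 and 3877 of its 4690-base 3′ UTR, Ero1lb at 139, 173 and 733 of 2641 bases, and Krt7 at 2308 and 2395 of 2648 bases, each followed by a second, overlapping match 4 bases further on.
Creg2 position 1834: attatcagcTATTTATcaaaattac
Creg2 position 3877: ctagtgaagTATTTATtgatggcag
Ero1lb position 139: ccacttgaaTATTTATgatctttaa
Ero1lb position 173: aattagagaTATTTATaaatgaagt
Ero1lb position 733: gaaaagcccTATTTATttaatggat
Krt7 position 2308: aaaaagattTATTTATttattctat
Krt7 position 2395: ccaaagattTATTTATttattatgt

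The heptamer was found in the 3′ UTR of 2 of the 4 genes called higher in 16 samples that have a 3′ UTR sequence and in 1 of 4 called lower. Among all genes tested with a sequence, 29.4% (4262 of 14479) held it. In the 14 samples it was in 6 of 27 genes called higher (22.2%) and 7 of 17 called lower (41.2%), beside 29.3% of those tested. The median 3′ UTR had 1090 bases in the higher genes, 1913 in the lower genes and 1125 in all. A match is a description and not a binding site.

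Each of the 46 genes called in 14 samples was then placed by its difference in each genotype. These differences are the terms of the interaction, so they describe the calls and do not test them again. All 29 genes with a positive interaction were called lower in WT-A than in WT-S. In TTPΔARE mice 24 of them were not called, 2 were called lower (Erdr1 and Gnmt) and 3 were called higher, among them Bhlha15 and Slc41a2. The median log2 difference of the 29 was -0.91 in WT and 0.09 in TTPΔARE mice. Of the 17 genes with a negative interaction, 14 were called higher in WT-A and 11 of these were not called in TTPΔARE mice. Adgrg6, Cyp1b1 and Nkx6-3 were called in both genotypes in opposite directions. The remaining Pdk4, Apobec1 and Sult1a1 were called lower in TTPΔARE mice and not called in WT in the 14 samples; Pdk4 was also called lower in WT in 16. The medians of the 17 were 0.65 and -0.45.

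**Figure D3:**
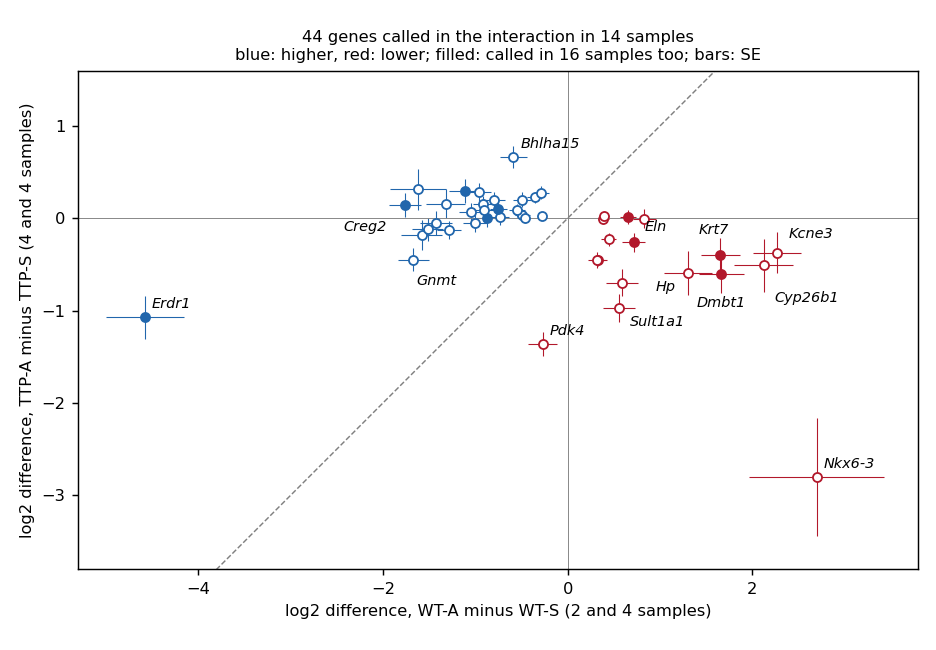
Log2 difference between conditions A and S in WT mice (horizontal axis) and in TTPΔARE mice (vertical axis) for 44 of the 46 genes called in 14 samples, with bars for the SE; the dashed line marks equal responses. Most genes lie along the horizontal zero line, with a change in WT and little in TTPΔARE mice. Pdk4 and Nkx6-3 lie well below that line.

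In the 14 samples 3 chief cell genes were called, all with a positive interaction. With 1 of the 14 samples left out, Gif kept its call in 9 of 14 fits and lost it without WT-S 3, WT-A 1, WT-A 2, TTP-S 3 or TTP-S 4. Bhlha15 kept it in 12 and Pdia2 in 13, and their losses were in the fits that held a single WT-A sample. Gif encodes gastric intrinsic factor, made by chief cells in the mouse, Bhlha15 (also called Mist1) the transcription factor that scales up the secretory apparatus, and Pdia2 a protein disulfide isomerase of secretory cells. Gif stood at 3080, 3714, 3633 and 3881 CPM in WT-S and at 1810, 1764, 2218 and 3164 CPM in WT-A, and at 2973 to 3365 CPM in TTP-S and 2478 to 3546 CPM in TTP-A. WT-A 1 and WT-A 2 were the lowest samples, and WT-A 4 was within the range of WT-S. The interaction of Gif was 0.95 in 14 samples (SE 0.16, adjusted p = 0.0225) and 0.62 in 16 (SE 0.22, adjusted p = 0.231).

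Bhlha15 stood at 40.1, 51.7, 42.7 and 38.0 CPM in WT-S and at 27.0, 30.4, 36.4 and 48.7 CPM in WT-A. It stood at 48.0, 40.4, 35.8 and 36.8 CPM in TTP-S and at 61.4, 55.3, 77.1 and 61.7 CPM in TTP-A. TTP-A was above all 3 other groups, with no overlap. Its difference in TTPΔARE mice was 0.67 (adjusted p = 0.039; 14 samples 0.66, adjusted p = 0.00717), and in WT -0.28 (adjusted p = 0.219; 14 samples -0.59, adjusted p = 0.0232). The interaction was 1.25 in 14 samples (SE 0.19, adjusted p = 0.00988) and 0.94 in 16 (SE 0.23, adjusted p = 0.121). Pdia2 stood at 664.8, 844.6, 778.1 and 750.9 CPM in WT-S and at 324.7, 299.9, 436.6 and 720.7 CPM in WT-A, beside 681.9 to 811 CPM in TTP-S and 558.5 to 780.2 CPM in TTP-A. As with Gif, WT-A 4 was near WT-S. The interaction of Pdia2 was 1.16 in 14 samples (SE 0.16, adjusted p = 0.00727) and 0.65 in 16 (adjusted p = 0.311).

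Other genes with the largest positive interactions among those called in 14 samples only were Derl3, Cbs, Tmed6 and Furin. Derl3 encodes a derlin of ER-associated degradation, Tmed6 a member of the p24 cargo receptors, Furin a proprotein convertase of the Golgi, and Cbs the cystathionine synthase of transsulfuration. Furin stood at 1913, 2660, 2723 and 2264 CPM in WT-S and at 795.3, 982.5, 1230 and 2654 CPM in WT-A, with 2091 to 2507 CPM in TTP-S and 1789 to 2791 CPM in TTP-A. The WT-A samples other than WT-A 4 were below every sample of the 3 other groups. Its interaction was 1.37 (SE 0.21, adjusted p = 0.0124) in 14 samples and 0.70 (SE 0.39, adjusted p = 0.383) in 16. Tmed6 was at 51.8 to 111.7 CPM in WT-A and 138 to 184 CPM in WT-S, and its interaction was 1.40 in 14 samples (adjusted p = 0.00988) and 0.96 in 16 (adjusted p = 0.167). Derl3 was at 3.38 to 7.35 CPM in WT-A and 9.29 to 9.85 CPM in WT-S (interaction 1.48, adjusted p = 0.0265; 16 samples 1.14, adjusted p = 0.13). Cbs was at 4.04, 4.66, 6.09 and 12.8 CPM in WT-A and 10.9 to 17.6 CPM in WT-S (interaction 1.40, adjusted p = 0.0468; 16 samples 0.75, adjusted p = 0.364). In both of the last genes WT-A 4 was the WT-A sample nearest to WT-S. With 1 of the 14 samples left out, the call held in 13 of 14 fits for Tmed6, 12 for Furin, 6 for Derl3 and 4 for Cbs.

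Among genes called in 14 samples only, the largest negative interactions were in genes with low counts. Nkx6-3 encodes a homeodomain factor of antral endocrine cells. It stood at 0.28, 0.212, 0.352 and 0.717 CPM in WT-S and at 2.20, 2.86, 0.78 and 0.739 CPM in WT-A. It stood at 0.324, 4.61, 4.15 and 3.29 CPM in TTP-S and at 0.273, 0.918, 0.384 and 0.185 CPM in TTP-A. TTP-S 2, TTP-S 3 and TTP-S 4 were high and TTP-S 1 was at the level of WT-S. The part of antral tissue in this result was not tested. The interaction was -5.50 in 14 samples (SE 0.97, adjusted p = 0.0265) and -4.90 in 16 (SE 1.0, adjusted p = 0.0808), and the call held in 5 of 14 fits without 1 sample (adjusted p up to 0.123, without WT-A 2).

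Kcne3, a potassium channel subunit, stood at 0.84, 0.679, 0.748 and 1.07 CPM in WT-S and at 3.501, 4.55, 2.19 and 1.17 CPM in WT-A, with 1.33 to 2.51 CPM in TTP-S and 1.18 to 1.84 CPM in TTP-A. Its interaction was -2.64 in 14 samples (SE 0.34, adjusted p = 0.00568) and -2.16 in 16 (adjusted p = 0.112). Cyp26b1, which degrades retinoic acid, had an interaction of -2.63 (adjusted p = 0.0186; 16 samples -2.23, adjusted p = 0.125). It stood at 1.80, 4.24, 2.26 and 0.739 CPM in WT-A, where the squamous sum was 154.5, 1425, 786.3 and 176.3 CPM, and it was highest in TTP-S in TTP-S 1, as that sum was. Kcne3 was also highest in WT-A 2 within WT-A and in TTP-S 1 within TTP-S. The part of squamous epithelium in either result was not tested. The Cyp26b1 call was lost without WT-S 3 and without WT-A 2, a fit with a single WT-A sample (adjusted p up to 0.131). Hp, the haemoglobin-binding acute-phase protein haptoglobin, stood at 2.64 to 3.97 CPM in WT-S, 5.70 to 8.07 CPM in WT-A, 2.82 to 5.41 CPM in TTP-S and 1.59 to 3.06 CPM in TTP-A. Every WT-A sample was above every other sample for Hp. Its interaction was -1.90 in 14 samples (adjusted p = 0.0376) and -1.76 in 16 (adjusted p = 0.0674). The call held in 5 of 14 left-out fits for Hp, 12 for Cyp26b1 and 13 for Kcne3.

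Pdk4 and Loxl2 were called as members of the glucocorticoid-responsive list and of the collagen and matrix list. Pdk4 encodes a kinase that inhibits pyruvate dehydrogenase and is induced by glucocorticoids and fasting. It stood at 20.5, 23.9, 21.5 and 27.9 CPM in WT-S and at 21.2, 17.7, 14.7 and 12.2 CPM in WT-A. It stood at 28.8, 44.1, 35.2 and 36.5 CPM in TTP-S and at 14.99, 15.3, 12.2 and 13.8 CPM in TTP-A. TTP-S was above the 3 other groups. The fall in TTPΔARE mice was -1.36 (adjusted p = 0.000435), and the interaction was -1.09 in 14 samples (SE 0.20, adjusted p = 0.0317) and -0.85 in 16 (SE 0.22, adjusted p = 0.133). Loxl2, a lysyl oxidase of matrix cross-linking, was at 29.6 to 32.9 CPM in WT-S and at 38.8 to 46.3 CPM in the samples of the 3 other groups, with an interaction of -0.37 in 14 samples (adjusted p = 0.0468) and -0.41 in 16 (adjusted p = 0.0755). The call of Pdk4 held in 6 of 14 left-out fits and that of Loxl2 in 3.

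The other 24 genes called in 14 samples were not picked by the naming rule, and those named here were chosen after their values were seen. Values are those of the 14 samples unless 16 are named. None was called in 16 samples, where adjusted p-values of those named ran from 0.0657 (Slc41a2) to 0.651 (Gnmt). Among the 17 with a positive interaction, Slc38a5, an amino acid transporter, had a log2 value of 1.24 (adjusted p = 0.00568) and kept its call in each of 14 fits without 1 sample. Gnmt, a glycine methyltransferase, had 1.22 (adjusted p = 0.0198), Clps, the colipase that assists pancreatic lipase, had 1.11 (adjusted p = 0.00988), and Pycr1, which makes proline, had 0.99 (adjusted p = 0.00988). Tent5c, a poly(A) polymerase, had 0.99 (adjusted p = 0.0488), and Cxcl12, a chemokine, had 0.69 (adjusted p = 0.0371). Fpgs, which adds glutamate to folates, had 0.58 (adjusted p = 0.0265). Adi1, Rnf149, Slc41a2, Unc5a, Smim10l1 and Ces1e lay between 0.30 and 0.75, and the gene models Gm12888 and 4930509E16Rik at 1.07 and 1.94. In 16 samples the log2 values were 0.98 for Slc38a5, 0.39 for Gnmt, 0.71 for Clps, 0.65 for Pycr1, 0.81 for Tent5c, 0.52 for Cxcl12 and 0.30 for Fpgs. Smim10l1 had 0.97 in 16 samples beside 0.46 in 14, and Adi1 had 0.46 beside 0.30. With 1 of the 14 samples left out, the call of Adi1 held in 1 of 14 fits, Tent5c in 2, Rnf149, Slc41a2 and 4930509E16Rik in 3, Cxcl12 in 4, Unc5a in 5, Fpgs and Ces1e in 8, Gnmt in 9, Smim10l1 in 11, Clps in 12 and Pycr1 and Gm12888 in 13.

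The positions of 2 of these genes were set beside those of genes called in 16 samples, a choice made after the calls were seen and with no share of all genes that lie as close. Rnf149, an E3 ubiquitin ligase with an interaction of 0.53 (adjusted p = 0.0498), lies at chr1:39551296-39577405, in the same stretch of chromosome 1 as Creg2. Slc41a2, a magnesium transporter with an interaction of 0.57 (adjusted p = 0.0488), lies at chr10:83230848-83337882, in the same stretch of chromosome 10 as Aldh1l2. Whether the members of a pair share reads or control was not tested.

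Among the 7 other genes with a negative interaction, Adgrg6, an adhesion receptor, stood at 13.2, 13.5, 11.6 and 12.8 CPM in WT-S and at 16.6, 15.6, 11.3 and 11.52 CPM in WT-A. It stood at 16.6, 17.9, 17.7 and 16.9 CPM in TTP-S and at 11.7, 12.8, 13.0 and 12.8 CPM in TTP-A. TTP-S was high in all 4 samples, and TTP-A was at the level of WT-S. Its interaction was -0.79 (SE 0.10, adjusted p = 0.00568; 16 samples -0.56, adjusted p = 0.146), and it kept its call in each of 14 fits without 1 sample. Sult1a1, a phenol sulfotransferase, had -1.53 (adjusted p = 0.00988), Cyp1b1, a cytochrome P450, had -1.29 (adjusted p = 0.027), and Apobec1, the cytidine deaminase that edits apolipoprotein B mRNA, had -0.78 (adjusted p = 0.0265). Irak4, a kinase of Toll-like receptor signalling, had -0.67 (adjusted p = 0.0179), Anxa1, a phospholipid-binding protein that dampens inflammation, had -0.84 (adjusted p = 0.0488), and Epb41l4b, a membrane skeleton protein, had -0.40 (adjusted p = 0.0468). In 16 samples Sult1a1 had -1.2, Cyp1b1 -1.08, Apobec1 -0.60, Irak4 -0.64, Anxa1 -0.60 and Epb41l4b -0.23. Left-out fits kept the call of Anxa1 in 3 of 14, Epb41l4b in 4, Apobec1 in 5, Cyp1b1 in 7 and Irak4 and Sult1a1 in 12. Anxa1 was highest in WT-A 2, as Krt7 was, and the part of squamous epithelium in its value was not tested.

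**Figure D4:**
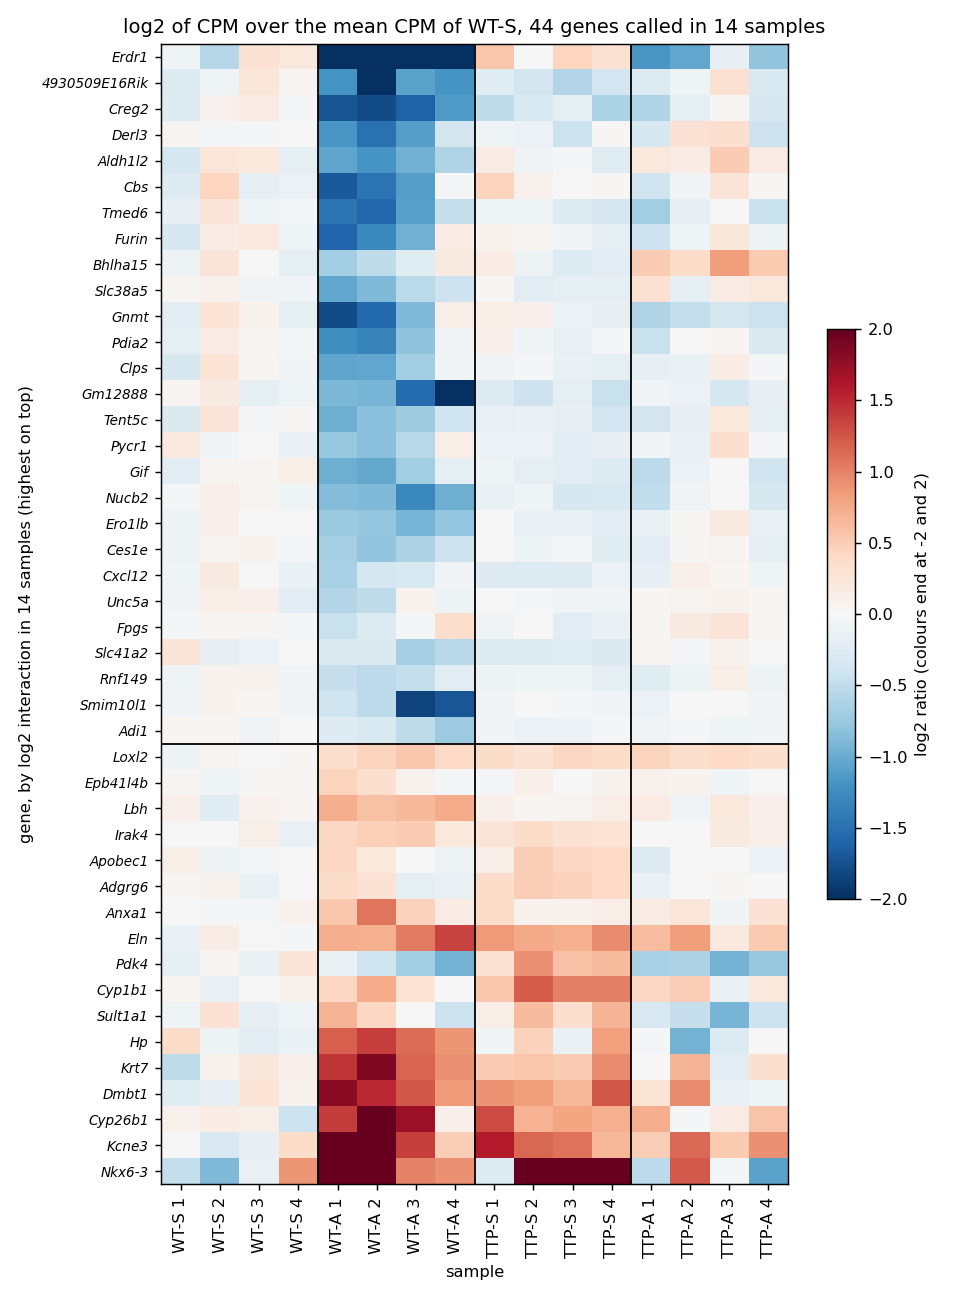
Log2 of CPM over the mean CPM of WT-S for 44 of the 46 genes called in 14 samples (rows, ordered by interaction) in each of 16 samples (columns); colours end at -2 and 2. Most positive genes are blue in WT-A 1 and WT-A 2 and closer to white in TTP-A; Erdr1 is blue in TTP-A as well and Bhlha15 red. Furin, Gnmt, Pdia2 and Clps are blue in WT-A 1 to WT-A 3 and near white in WT-A 4.

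Promoters of the called genes were searched for a pair of motifs, and 1 match is printed as an example. Promoters ran from 250 bases before to 50 after a RefSeq start (GRCm38.p6), and 23 of the 29 positive and 13 of the 17 negative genes had one. The letters TGATGNAA, a form of the C/EBP-ATF response element read by the stress factor ATF4, were searched on both strands. This motif and TGACGTG, a core of the ER stress elements, were chosen after the called genes were seen. TGATGNAA was in 3 of 23 promoters of positive genes (Creg2, Pycr1 and Smim10l1), 1 of 13 of negative genes (Apobec1), 2.89% of the promoters of genes tested and 3.97% of all 32851 promoters. TGACGTG was in 1 of 23 (Furin), 0 of 13, 3.12% and 2.01%. The 2 motifs share letters, and a match is not a site. The stretch of the Pycr1 promoter with its match in capitals is at chr11:120643818-120643877 on the minus strand.
Pycr1 promoter: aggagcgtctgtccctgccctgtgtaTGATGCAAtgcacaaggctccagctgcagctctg

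The interaction was also read across 29 lists of cell type markers and pathways. No list was tested as a set. Counts are of members that passed the filter, and a gene that passed only through 1 group had to differ, so the counts describe these samples. Across all genes tested the median log2 interaction was 0.002 in 16 samples and 0.004 in 14, and the middle 50% of genes spanned 0.36 and 0.264. A positive interaction with an unadjusted p under 0.05 was reached by 1140 of 15385 genes in 16 samples and 1056 of 15597 in 14, and a negative one by 1204 and 1009.

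Of the 12 chief cell genes 11 were tested, with 9 positive in 16 samples and 8 in 14. The median log2 interaction of the list was 0.62 in 16 samples and 0.95 in 14. No member was called by edgeR in 16 samples, with 6 higher and 0 lower at an unadjusted p under 0.05, and 3 of 11 (Gif, Bhlha15 and Pdia2) were called in 14, beside 0.186% of all genes. Pgc, the precursor of pepsin C, had 0.67 (adjusted p = 0.331) in 16 samples and 1.08 (adjusted p = 0.12) in 14. Slc27a2, a fatty acid transporter, had 1.71 (adjusted p = 0.124) and 2.25 (adjusted p = 0.0525), and Chia1, an acidic chitinase, had 1.09 (adjusted p = 0.188) and 1.10 (adjusted p = 0.269). Pga5, the precursor of pepsin A, had -0.39 and -0.20, so the pepsinogens did not share a sign. Without WT-A 4 the list median was 0.84.

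In the gastric endocrine list all 11 tested genes of 12 were positive in both fits, with medians of 0.41 and 0.58 and no call. At an unadjusted p under 0.05 there were 2 of 11 members in 16 samples, beside 1140 of 15385 genes, and 8 of 11 in 14, beside 1056 of 15597. Slc18a2, the vesicular monoamine transporter, had 0.83 (adjusted p = 0.0808) and 0.74 (adjusted p = 0.108). Hdc, the histamine-forming enzyme of enterochromaffin-like cells, had 0.60 (adjusted p = 0.483) and 1.27 (adjusted p = 0.137). Without WT-A 4 the median was 0.64. The parietal list had a median of 0.12 in 16 samples and 0.27 in 14, and its only called member was Gif, in 14 samples. Of its 14 tested genes, 10 were positive in 16 samples and 12 in 14. At an unadjusted p under 0.05 by edgeR, 4 and 6 were higher and 0 lower. Atp4a and Atp4b, the subunits of the proton pump, had 0.03 and 0.10 in 16 samples and 0.21 and 0.38 in 14, with no call. The 16 respiratory chain genes had medians of 0.008 in 16 samples and 0.12 in 14, and no call. Of these, 9 were positive in 16 samples and 16 in 14.

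The 20 genes of the ER folding list had a median of 0.05 in both fits and no call, with 2 higher and 0 lower at an unadjusted p under 0.05 in 16 samples. Hspa5, the major ER chaperone, had 0.26 (adjusted p = 0.392) in 16 samples and 0.10 (adjusted p = 0.815) in 14. Xbp1, a transcription factor of the unfolded protein response, had 0.25 (adjusted p = 0.21) and 0.26 (adjusted p = 0.189).

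Lists with negative medians included mitosis and matrix genes. Of 16 mitosis genes 15 were negative in both fits, with medians of -0.41 and -0.51, no call by edgeR, and 8 and 10 members lower at an unadjusted p under 0.05. Mki67 stood at 90.3, 115, 120.4 and 86.6 CPM in WT-S and at 148, 139, 127 and 144 CPM in WT-A, with 101 to 135 CPM in TTP-S and 110.1 to 136 CPM in TTP-A. Its interaction was -0.39 (adjusted p = 0.295; 14 samples -0.43, adjusted p = 0.334). The 16 collagen and matrix genes had a median of -0.41 in 16 samples and -0.22 in 14, with Eln called in 16 and Eln and Loxl2 in 14. Smooth muscle genes, which come from the muscle layer, had medians of -0.21 and -0.16 beside them, with no call, and their part in the matrix values was not tested.

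The glucocorticoid-responsive list had 13 of 18 genes with a negative interaction in both fits, with medians of -0.18 and -0.23. Only Pdk4 was called, in 14 samples. Klf9, a glucocorticoid-induced transcription factor, had -0.46 (adjusted p = 0.178) and -0.58 (adjusted p = 0.106), and Fkbp5, a co-chaperone of the glucocorticoid receptor, had -0.68 (adjusted p = 0.221) and -0.64 (adjusted p = 0.335). Per1, a clock gene induced by glucocorticoids, had 0.11 (adjusted p = 0.772) and 0.25 (adjusted p = 0.585), and Tsc22d3 had -0.02 and -0.06.

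Inflammatory lists had few differences that passed the test. The interferon response list was negative in 17 of 19 genes in 16 samples and 18 in 14, with medians of -0.39 and -0.40, no call by edgeR and 2 and 1 members lower at an unadjusted p under 0.05. Its summed level was 494.4, 261.2, 444.3 and 244.1 CPM in WT-A 1 to WT-A 4 and 229.7 to 363.9 CPM in WT-S, so WT-A 1 and WT-A 3 were high and the other WT-A samples lay within the range of WT-S. The 9 tested of 20 reported TTP targets had medians of 0.12 and 0.09 and no call. Among them Lif, a cytokine, had -1.29 (unadjusted p = 0.00071 by edgeR, adjusted p = 0.119; 14 samples adjusted p = 0.173) and Tnf, the inflammatory cytokine, had -1.01 (adjusted p = 0.445; 14 samples -0.77, adjusted p = 0.683). Macrophage genes had medians of -0.10 and 0.06, and T cell genes -0.05 in 7 of 13 listed and 0.20 in 8. Of the B and plasma cell list only 5 of 10 genes were tested, and Derl3, which is also expressed in other secretory cells, was its only call, in 14 samples. SPEM and mucous neck genes had a median of -0.11 in both fits, with Dmbt1 the only call.

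Squamous forestomach genes had the most negative medians of the 29 lists, -3.54 in 16 samples and -3.79 in 14, with no call by edgeR and 7 of 15 and 10 of 16 members lower at an unadjusted p under 0.05. The median was -1.41 without TTP-S 1 and -2.25 without WT-A 2, the samples with the highest sum of these genes in TTP-S and WT-A. Adipose tissue genes had medians of -0.72 in 16 samples and -0.35 in 14, with no call.

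**Figure D5:**
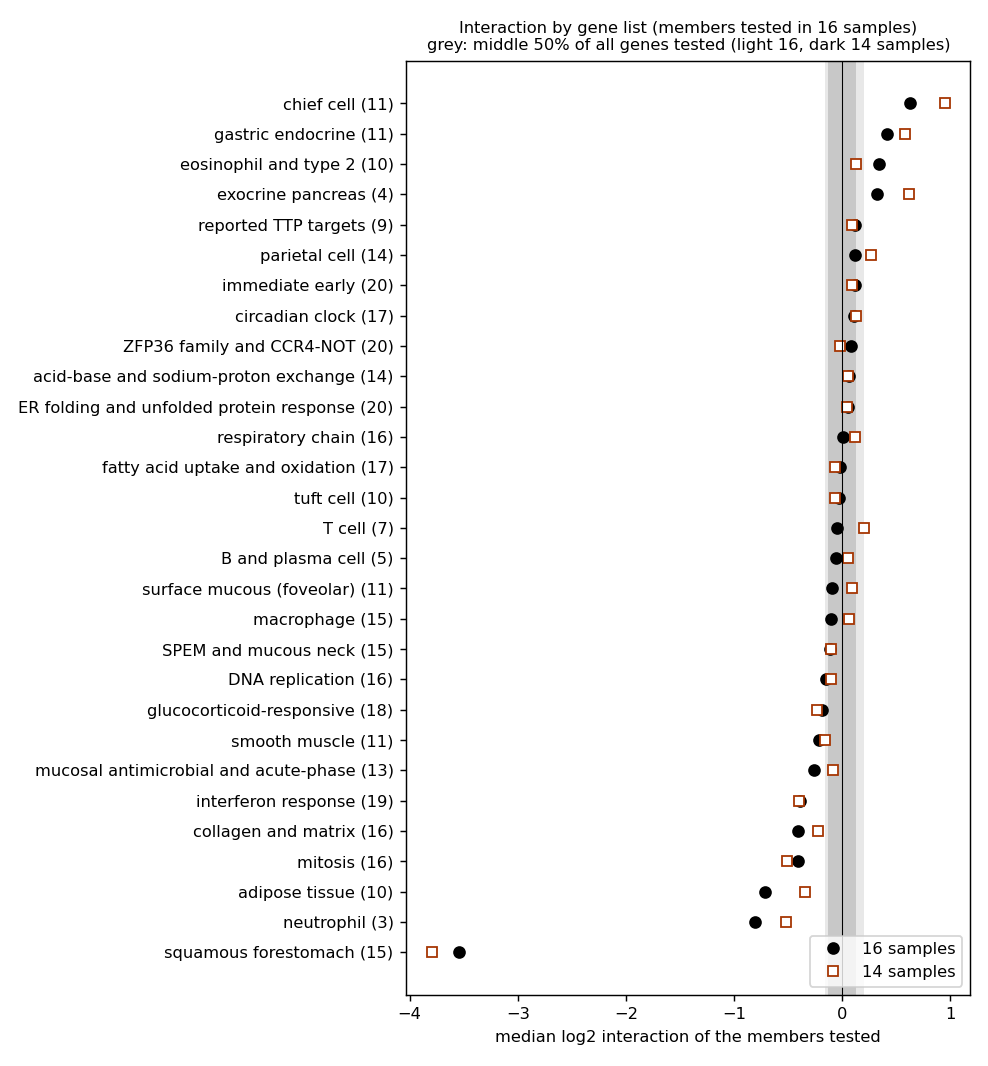
Median log2 interaction (horizontal axis) of the tested members of 29 gene lists (vertical axis, number tested in 16 samples in brackets), in 16 samples (filled) and 14 samples (open); grey bands give the middle 50% of all genes tested. Chief cell genes have the highest median (0.62 and 0.95) and squamous forestomach genes the lowest (-3.54 and -3.79).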

How the data were processed

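RNA of 16 gastric corpus samples was sequenced from Illumina TruSeq libraries. The deposited table holds raw read counts per gene symbol for every sample. The submitters' processing notes name STAR 2.7.0f, featureCounts, Subread 1.6.4, DESeq2 and the build mm10 without their roles. The annotation, strand setting and filters are not given in the sources used here. Groups came from the sample labels, and the members and lists were chosen with earlier results of these data known.

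The counts as deposited were filtered with filterByExpr, scaled by TMM and fitted over all 4 groups with the quasi-likelihood test of edgeR 4.0.16 in R 4.3.3. The interaction and both of its terms are contrasts of that fit, and p-values were adjusted by Benjamini-Hochberg over all tested genes. The same steps were run without WT-A 3 and WT-A 4. Depth limits the precision of genes under about 1 CPM. Alternatives were other size factors and filters, DESeq2 1.42.0, limma 3.58.1 (voom with sample weights), GC offsets (loess, span 0.5), a replicate block, a minimum log2 change of 1 (glmTreat) and each sample left out. The procedures were tested on simulated data. No pair of replicates agreed within counting noise, so none was treated as 1 library deposited again; this does not show that they were separate mice.

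Named genes were Zfp36, genes called in both fits with a mean of at least 1 CPM in the highest group (up to 12 in each direction), the 4 largest in each direction called in 14 samples only, and members of the lists; unnamed gene models were passed over. Positions and 3′ UTR sequences are from GENCODE (GRCm38, equal to mm10) and promoters from RefSeq (GRCm38.p6). Of the called genes, 2 are not reported here by name; they stay in all counts of genes called.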

Additional observations from a re-analysis of the deposited data

Results flagged for a closer look

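The response to condition A differed between the genotypes by the edgeR test of the interaction itself for the following genes, each with its log2 interaction. In 16 samples these were Erdr1 (3.34), Creg2 (1.69), Aldh1l2 (1.23), Nucb2 (0.99) and Ero1lb (0.91) with a positive value, and Dmbt1 (-2.0), Krt7 (-1.79), Eln (-1.24) and Lbh (-0.66) with a negative one. A further 37 genes were called in 14 samples only, of which 35 are given. The largest positive values were those of 4930509E16Rik (1.94), Derl3 (1.48), Cbs (1.40), Tmed6 (1.40), Furin (1.37), Bhlha15 (1.25) and Slc38a5 (1.24). They were followed by Gnmt (1.22), Pdia2 (1.16), Clps (1.11), Gm12888 (1.07), Tent5c (0.99), Pycr1 (0.99), Gif (0.95) and Ces1e (0.745). The smallest positive values were those of Cxcl12 (0.69), Unc5a (0.63), Fpgs (0.58), Slc41a2 (0.57), Rnf149 (0.53), Smim10l1 (0.46) and Adi1 (0.30). The negative values were led by Nkx6-3 (-5.50), Kcne3 (-2.64), Cyp26b1 (-2.63), Hp (-1.90), Sult1a1 (-1.53), Cyp1b1 (-1.29), Pdk4 (-1.09) and Anxa1 (-0.84). Smaller negative values belonged to Adgrg6 (-0.79), Apobec1 (-0.78), Irak4 (-0.67), Epb41l4b (-0.40) and Loxl2 (-0.37). 

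In 11 of 180 group values tested, 1 sample lay apart from the other 3 of its group, and chance gives about 1 in 20. Aldh1l2 was high in TTP-A 3 at 44.7 CPM, Krt7 was high in TTP-S 4 at 32.7 CPM, Cbs was high in TTP-S 1 at 17.7 CPM and Slc38a5 was high in TTP-S 1 at 13.3 CPM. Tent5c was low in TTP-S 4 at 39.9 CPM and Cxcl12 was high in the same sample at 73.8 CPM. Epb41l4b was low in WT-S 2 at 170 CPM and Sult1a1 was high there at 11.7 CPM. The gene model 4930509E16Rik was low in WT-A 2 at 0.31 CPM. Cyp26b1 was low in WT-S 4 at 0.512 CPM and high in TTP-S 1 at 1.70 CPM.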

How the results depend on the processing

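The interaction count of 9 was 9 with DESeq2 size factors, without the filter and with a stricter filter, and held all 9 genes each time. It was 262 by the DESeq2 Wald test and 171 by limma voom, both holding the 9, and 26 with GC offsets, holding all but Nucb2. Of the 46 genes called in 14 samples, these 16-sample fits held 32 by DESeq2, 42 by voom and 19 with GC offsets. With a minimum log2 change of 1 edgeR called 0, with 98 at an unadjusted p under 0.05. Leaving out 1 sample gave 2 to 211. In 14 samples (46 called) it was 252 by DESeq2, holding all 46, 82 by voom, holding 43, and 49 with GC offsets, holding 44. Leaving out 1 sample of the 14 gave 117 without WT-S 1, 30 without WT-S 2, 19 without WT-S 3, 24 without WT-A 1 or TTP-S 3, 5 without WT-A 2, 20 without TTP-S 4 and 28 without TTP-A 4. The number of genes called in WT-A against WT-S (2891) was 1620 in 14 samples, 2 with the minimum change and 1254 (without WT-S 2) to 4977 (without WT-A 1) with 1 sample left out. The number of genes called in TTP-A against TTP-S (446) was 977 in 14 samples, 863 by DESeq2, 2346 by voom, 751 with GC offsets, 0 with the minimum change and 60 (without TTP-A 1) to 937 (without TTP-A 2) with 1 sample left out. The cause of these shifts was not tested.

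Of 24 same-numbered pairs of samples, 5 correlated over 0.1 (range -0.43 to 0.44). Pairs with different numbers were not compared, so whether the replicate numbers pair the samples was not tested. With the replicate number as a block, 4 genes were called in 16 samples and 32 in 14, which held 28 of the 46. In 16 samples Aldh1l2, Krt7, Eln, Nucb2 and Dmbt1 lost their calls (adjusted p = 0.0608 for Eln and 0.055 for Nucb2). With the block and GC offsets the interaction count was 15, without Aldh1l2, Ero1lb, Nucb2 and Dmbt1 (adjusted p = 0.0639 for Ero1lb), and that for TTP-A against TTP-S was 735. Neither Zfp36 nor any called gene changed sign under the alternatives run for it, single list members that were not called have no values under the alternatives other than the 14 samples, and 28 list medians moved. The 14-sample DESeq2, voom, block, GC and left-out fits were chosen after seeing the data.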
